A study of Mus musculus with 3 samples.

Results

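The genes described here encode 8 members of the S100 family of calcium-binding proteins, chosen by gene symbol alone: S100a8, S100a9, S100a11, S100a6, S100a13, S100a1, S100a4 and S100a10. They are 8 of the 16072 named genes in an RNA-seq table of BM cells from C57BL/6 mice. The cells are labelled Ly6G+ myeloid cells and are also called Gr-1+ in the study, and Gr-1 antibodies bind Ly6G and can also bind Ly6C. The labels give 2 groups, AAV-ctrl, which is an empty adeno-associated virus vector (2 libraries, 1 and 2), and AAV-IL27, in which the vector, injected into muscle, makes the mouse produce murine IL-27, its EBI3 and p28 chains linked, from a CAG promoter (1 library, numbered 2). All mice, controls included, carried B16.F10 melanoma cells, placed under the skin 1 week ahead of the vector, and gave their cells 3 weeks after the vector, and the study's methods give an age of 6 to 10 weeks for its mice. The design text mentions 4 mice but gives 2 for AAV-ctrl and 1 for AAV-IL27. The table holds a further column whose name marks it as another AAV-IL27 replicate, but it corresponds to none of the listed samples and was not analysed here. The AAV-IL27 values below therefore come from 1 library without a replicate, no difference below was tested, and p-values are not given.

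S100 proteins are small proteins with a pair of EF-hand loops. On binding calcium, a dimer opens a surface that grips a target protein, so the family translates calcium signals into changes in the cytoskeleton, membranes and enzymes. S100a8 and S100a9 form calprotectin, the most plentiful soluble protein of the neutrophil cytoplasm, which withholds zinc and manganese from microbes and, once released, acts as an alarm signal through TLR4 and RAGE. The other members are found in many cell types and work mainly inside the cell, S100a10 and S100a11 with annexins, S100a4 with non-muscle myosin, S100a6 with the calcyclin-binding protein, S100a13 in the release of FGF1 and IL-1α, and S100a1 with calcium channels and pumps of muscle.

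All 8 genes lie on mouse chromosome 3 in the GRCm38 build (GENCODE M21), in a pair of groups separated by 2825 kb. Of these, 6 genes, S100a1, S100a13, S100a4, S100a6, S100a8 and S100a9, share a stretch of 185 kb. S100a11 (chr3:93520488-93526287) and S100a10 (chr3:93555080-93564643) lie together within 44.2 kb. S100a8 (chr3:90668978-90670035, plus strand) and S100a9 (chr3:90692632-90695721, minus strand) point towards each other across a gap of 22.6 kb, and each has 3 exons. S100a1 (chr3:90511034-90514392, minus strand) and S100a13 (chr3:90514435-90524581, plus strand) are arranged head to head, with annotated starts only 43 bp apart in GENCODE and 105 bp apart in RefSeq. S100a4 (chr3:90603771-90606045) and S100a6 (chr3:90612882-90624181) stand between these pairs on the plus strand.

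RefSeq promoter windows in GRCm38.p6, 250 bases before and 50 bases after each annotated start, were matched for 7 of the 8 members, all but S100a10. Windows of the 3 most abundant members are shown 5′ to 3′ on the gene's strand, with capitals marking the core of a TATA box, TATAAA, the GC box with its letters GGGCGG, and the C/EBP motif TTGCNNAA, all searched on both strands. Their positions are chr3:90668821-90669120 for S100a8 (plus strand), chr3:90695672-90695971 for S100a9 (minus strand) and chr3:93520246-93520545 for S100a11 (plus strand). In the fourth window, chr3:90514185-90514484 on the plus strand, capitals mark the 104 bases between the RefSeq starts of S100a1, read leftwards, and S100a13, read rightwards.
S100a8: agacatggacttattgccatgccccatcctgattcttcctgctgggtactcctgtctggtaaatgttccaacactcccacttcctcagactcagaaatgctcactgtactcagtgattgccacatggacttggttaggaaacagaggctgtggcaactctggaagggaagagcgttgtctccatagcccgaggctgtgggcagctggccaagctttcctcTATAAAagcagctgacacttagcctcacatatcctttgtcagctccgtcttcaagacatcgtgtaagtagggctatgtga
S100a9: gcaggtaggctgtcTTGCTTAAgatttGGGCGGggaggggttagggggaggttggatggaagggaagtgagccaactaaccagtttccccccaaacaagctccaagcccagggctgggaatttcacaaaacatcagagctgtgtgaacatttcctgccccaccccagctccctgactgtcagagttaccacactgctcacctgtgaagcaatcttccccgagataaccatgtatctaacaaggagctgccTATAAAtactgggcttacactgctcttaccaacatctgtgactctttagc
S100a11: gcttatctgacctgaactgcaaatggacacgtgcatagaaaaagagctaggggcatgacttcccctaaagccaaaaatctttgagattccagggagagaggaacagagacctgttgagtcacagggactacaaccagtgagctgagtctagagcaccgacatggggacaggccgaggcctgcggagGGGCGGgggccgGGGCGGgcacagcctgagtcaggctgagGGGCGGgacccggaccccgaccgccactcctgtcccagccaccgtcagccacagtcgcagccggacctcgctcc
S100a1 and S100a13, shared window: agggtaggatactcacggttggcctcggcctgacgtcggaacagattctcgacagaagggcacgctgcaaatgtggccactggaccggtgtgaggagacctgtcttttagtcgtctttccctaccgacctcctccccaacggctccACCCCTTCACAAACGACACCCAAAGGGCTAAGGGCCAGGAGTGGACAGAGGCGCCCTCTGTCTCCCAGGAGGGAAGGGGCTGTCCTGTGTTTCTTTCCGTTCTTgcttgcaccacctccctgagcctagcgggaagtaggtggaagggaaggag

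S100a8 carried a TATAAA 30 bases before its annotated start, and S100a4 carried a TATAAA 31 bases before its own. A TATAAA on the gene's strand beginning 40 to 20 bases before the start was found in 1.99% of all 32851 mouse windows, and anywhere on either strand in 13.6%. The S100a9 window had a TATAAA exactly at its annotated start, a GC box 223 bases before it and a C/EBP motif 236 bases before it. The C/EBP letters were present in 10.8% of all windows and the GC box in 35.7%. S100a11 held 3 GC boxes at 64, 52 and 24 bases before the start and no TATAAA. The windows of S100a1, S100a13 and S100a6 held none of these motifs. TTCNNNGAA, the letters of the GAS element bound by STAT factors, was found in 8.30% of all windows and in none of the 7 members' windows. The letters of the 4 motifs did not overlap in any member's window. S100a11, S100a1 and S100a13 had GC contents of 61.7%, 61.0% and 59.3% with 15, 11 and 14 CpG pairs, against medians of 52.7% and 7 over all windows, while S100a8 and S100a9 held 4 and 2 CpG pairs. These matches describe letters in a window and not binding.

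Expression is given as FPKM, fragments scaled to the length of the transcript and to the mapped total of the library, so levels of different genes can be set side by side within a library. Low FPKM values rise in steps of 1 fragment, and these steps gave an estimated depth of 19150000 and 19400000 fragments for the control libraries and 19150000 for AAV-IL27 2. Below, 3 values of a gene always follow the order AAV-ctrl 1, AAV-ctrl 2, AAV-IL27 2. Differences are given on the log2(FPKM + 1) scale as AAV-IL27 2 minus the mean of both controls, beside the gap between the controls themselves. The size of that gap had a median of 0.087 and a 99th percentile of 0.57 over the 9130 genes that averaged 1 FPKM or more, all 8 members among them. The libraries carried the profile of neutrophils, since the 12 neutrophil markers had summed FPKM of 72395, 73871 and 69996, with the granule protein gene Ngp at 25644, 24728 and 24209, and 0 of 12 met the size rule used throughout, by which a gene counts as lower or higher when AAV-IL27 2 lies 1 log2 unit or more beyond each control in that direction. By any amount, 6 of the 12 neutrophil markers lay below both controls and 4 above, against 41.9% and 38.9% of all genes. They ran from −0.33 for Ly6g to 0.41 for Elane, both named after their values were seen. Larger differences were found among genes of other cells. Of 13 macrophage markers, 12 were lower in AAV-IL27 2, with a summed FPKM of 837, 826 and 234 over the list and the most abundant gene, Hmox1, at 207, 164 and 57.9. All 10 erythroid markers were also lower (20505, 13846 and 2356, led by Hba-a1), as were 4 of 4 measured B cell markers (27.2, 34.4 and 4.34 over the list, led by Cd79a) and 3 of 6 megakaryocyte markers (76.1, 85.1 and 32.5 over the list). The most abundant megakaryocyte marker, Itgb3, had 24.2, 27.1 and 22.9 and differed by −0.15. In bulk samples, fewer cells of a type and less RNA per cell cannot be told apart.

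S100a9 was the most abundant of all genes in each of the 3 libraries and S100a8 was second in each. S100a9 had an FPKM of 73508 in AAV-ctrl 1, 71786 in AAV-ctrl 2 and 68765 in AAV-IL27 2. S100a8 had 41371 and 38113 in the controls and 38320 in AAV-IL27 2. The AAV-IL27 value of S100a8 lay between the AAV-ctrl values, and that of S100a9 lay slightly below both. S100a9 differed by −0.079 log2 units, with the AAV-ctrl libraries 0.034 apart (AAV-ctrl mean 72647 ± 1218 SD, n = 2). S100a8 differed by −0.051, less than the 0.12 that separated its AAV-ctrl values (39742 ± 2304 SD, n = 2). The AAV-IL27 level was therefore 94.7% of the AAV-ctrl mean for S100a9 and 96.4% for S100a8.

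**Figure D1:**
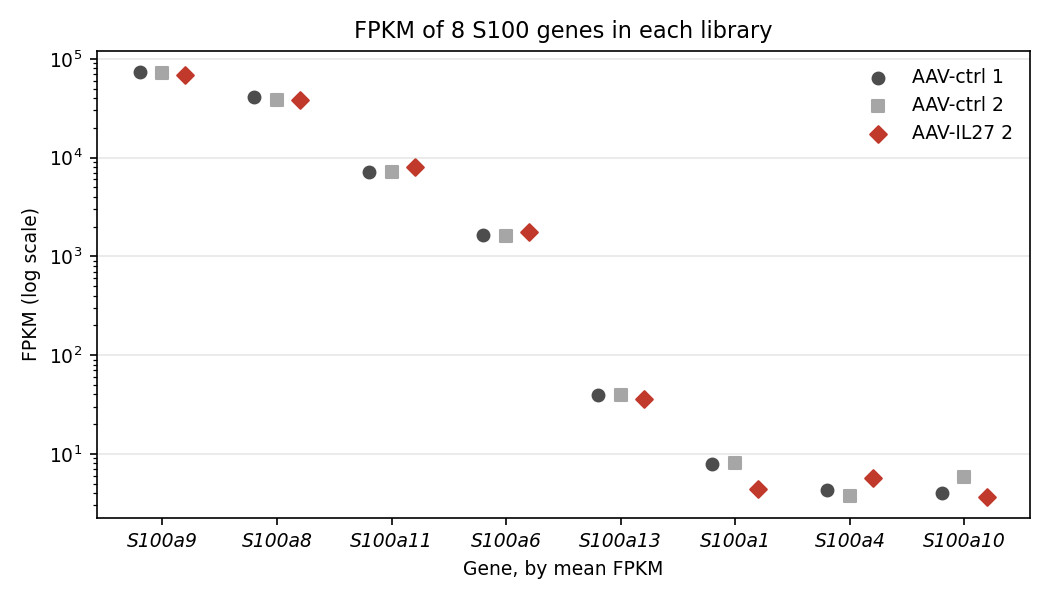
FPKM on a log axis for the 8 S100 genes, ordered by mean FPKM, with 1 point for each library (circles AAV-ctrl 1, squares AAV-ctrl 2, diamonds AAV-IL27 2). S100a8 and S100a9 reach at least 38113 FPKM in every library and S100a1, S100a4 and S100a10 stay below 10, with the AAV-IL27 point of S100a1 beneath both AAV-ctrl points.

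Both subunits kept nearly the same proportion. The FPKM ratio of S100a8 to S100a9, which any scaling of a library leaves untouched, was 0.563, 0.531 and 0.557, so the AAV-IL27 ratio fell within the AAV-ctrl range. The 2 genes together made up 19.3%, 18.7% and 18.7% of all FPKM. The 8 members together made up 20.8%, 20.2% and 20.4%. Haemoglobin genes took 3.397%, 2.32% and 0.405% of the total, and with them left out the share of the 8 members was 21.5%, 20.7% and 20.5%, which places the AAV-IL27 library below both AAV-ctrl libraries.

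The 8 genes spanned a very wide range of levels. S100a9, S100a8, S100a11, S100a6 and S100a13 followed each other in the same order in every library, and no value of a gene overlapped the values of its neighbour. S100a9 exceeded S100a10 by 18469, 12209 and 18636 times. Below S100a13, the ranges over the 3 libraries overlapped, with S100a1 at 4.41 to 8.15 FPKM, S100a4 at 3.73 to 5.67 and S100a10 at 3.69 to 5.88, so these 3 genes have no firm order. S100a10 ranked above S100a4 in AAV-ctrl 2 and below it in the other libraries.

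The size rule called no member. Of the 8 members, 0 were lower and 0 were higher, against 2.32% of all 9130 genes lower and 0.307% higher. At 0.5 log2 units, 1 member was lower, S100a1, against 7.01% of all genes, and 0 were higher, against 1.57%. By any amount, 4 members lay below both AAV-ctrl libraries and 3 above, against 41.9% and 38.9% of all genes. The members' median difference was −0.065 and that of all genes −0.0054. The counts of members were thus close to what the whole table gave.

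**Figure D2:**
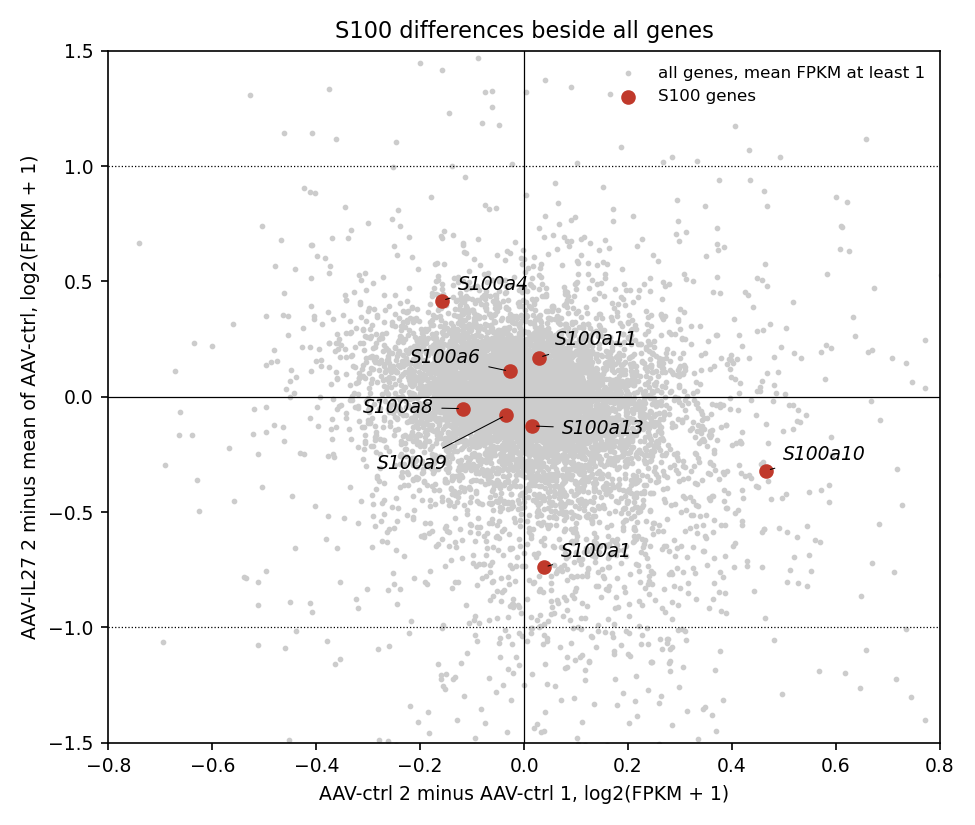
Difference between the AAV-ctrl libraries (x axis) and of AAV-IL27 2 from the AAV-ctrl mean (y axis), both on the log2(FPKM + 1) scale, for 9130 genes (grey) and the 8 S100 genes (red). Dotted lines mark 1 log2 unit and 140 genes lie outside the axes. S100a1 is the lowest red point at −0.74, S100a4 the highest at 0.42, and S100a10 stands apart to the right because the AAV-ctrl libraries differ by 0.47.

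S100a1, best known as a regulator of calcium cycling in heart and skeletal muscle, was the member that differed most. Its FPKM was 7.91 and 8.15 in the controls and 4.41 in AAV-IL27 2, or 54.9% of the AAV-ctrl mean (8.03 ± 0.17 SD, n = 2). The AAV-ctrl values were nearly equal and the AAV-IL27 value lay below both. The difference was −0.74 log2 units, with gaps of −0.72 and −0.76 to the single AAV-ctrl libraries, which were 0.038 apart. These values correspond to about 92, 96 and 51 fragments, with 95% Poisson intervals of 74.2 to 113, 77.8 to 117 and 38.0 to 67.1, so the interval of AAV-IL27 2 did not reach those of the AAV-ctrl libraries. The intervals cover counting error only and not the variation between mice. Among 2646 genes with a mean of 3 to 10 FPKM, 176 (6.65%) were at least as far below, and the gap between the controls had a 99th percentile of 0.60. The macrophage, erythroid, B cell and megakaryocyte markers listed above were lower in the same library. The part of these other cells in the S100a1 difference was not tested.

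S100a13, whose start almost touches that of S100a1, did not show a difference of this size. Its FPKM was 39.3 and 39.8 in the AAV-ctrl libraries and 36.2 in AAV-IL27 2, slightly below both. The difference was −0.13, and the estimated fragments (486, 498 and 447) had overlapping 95% intervals, from 444 to 531, 455 to 544 and 407 to 490. The ratio of S100a13 to S100a1 was 4.97 and 4.88 in the AAV-ctrl libraries and 8.20 in AAV-IL27 2. The head-to-head pair therefore had a different balance in the AAV-IL27 library, while Chtop, the nearest gene on the other side of S100a1 at 1.54 kb, had 18.3, 16.1 and 16.9 FPKM, with AAV-IL27 2 between the controls. Of 3 listed partners of S100a13 in protein export, Syt1 had no values. The others, Fgf1 and Il1a, averaged below the FPKM minimum of the size rule but were lowest in AAV-IL27 2. Fgf1 had 1.31, 0.94 and 0.09 FPKM, an estimated 98, 71 and 7 fragments, with 95% Poisson intervals of 79.6 to 119, 55.5 to 89.6 and 2.81 to 14.4. Il1a, the gene of IL-1α, had 1.07, 0.87 and 0.26 FPKM, an estimated 39, 32 and 9 fragments (27.7 to 53.3, 21.9 to 45.2 and 4.12 to 17.1). In each gene the AAV-IL27 interval lay below both control intervals, in the library whose macrophage markers were also lower, and the part of macrophages was not tested.

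S100a4, which binds non-muscle myosin and is tied to cell motility, was the member furthest above the controls. Its FPKM was 4.28 and 3.73 in the controls and 5.67 in AAV-IL27 2, a difference of 0.42 where the AAV-ctrl libraries were 0.16 apart. The AAV-IL27 value lay above both, but the estimated 35, 31 and 46 fragments had 95% intervals of 24.4 to 48.7, 21.1 to 44.0 and 33.7 to 61.4, which overlapped. The intervals are wide at this depth, and the difference was not tested. Of genes in the same range of FPKM, 103 (3.89%) lay at least as far above. A further annotated gene, Gm42674, overlaps S100a4 and holds the same 302 bases at 100% identity, so fragments of the pair cannot be separated in that stretch. Its myosin partner, Myh9, had 498, 532 and 533 FPKM.

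S100a10, the partner of annexin A2 at the plasma membrane, had unequal values in the controls. It had 3.98 FPKM in AAV-ctrl 1, 5.88 in AAV-ctrl 2 and 3.69 in AAV-IL27 2, and most of the spread was between the controls. The difference of −0.32 was smaller than the 0.47 between the AAV-ctrl libraries, and the estimated 47, 70 and 43 fragments had overlapping intervals (34.5 to 62.5, 54.6 to 88.4 and 31.1 to 57.9). Among the 2646 genes with a mean of 3 to 10 FPKM, the gap between the controls had a median of 0.10 and a 99th percentile of 0.60. The gap of S100a10 was thus larger than that of most genes at its level. Annexin A2 itself (Anxa2) was expressed at 991, 982 and 899 FPKM, that is 249, 167 and 244 times the level of S100a10. In these cells the annexin mRNA thus far outnumbered that of its S100 partner.

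**Figure D3:**
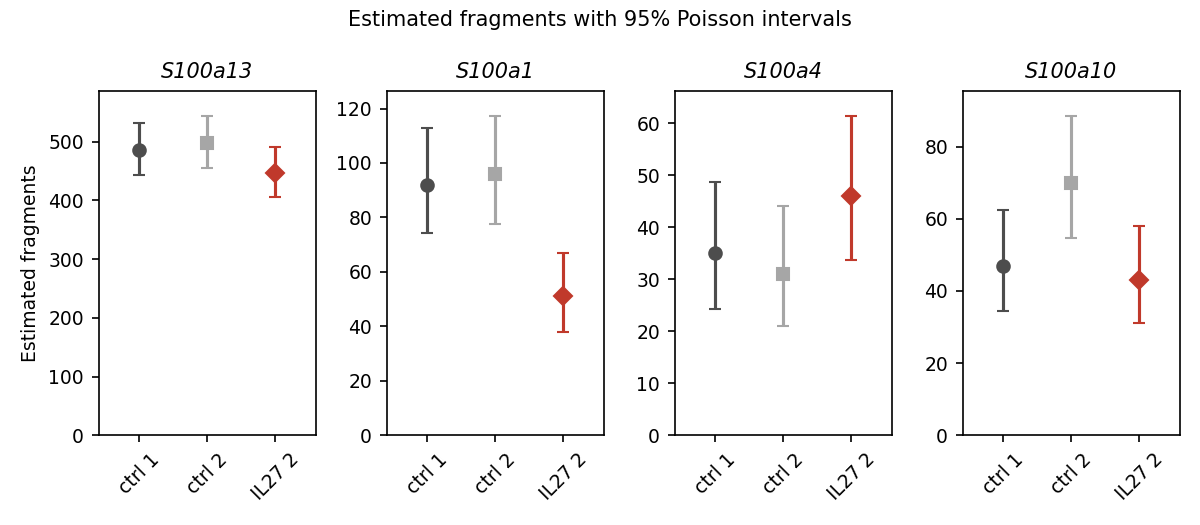
Estimated fragments of S100a13, S100a1, S100a4 and S100a10 in AAV-ctrl 1, AAV-ctrl 2 and AAV-IL27 2, with exact 95% Poisson intervals that cover counting error only. The AAV-IL27 interval of S100a1 (38.0 to 67.1) lies below both AAV-ctrl intervals, and the intervals of the other 3 genes overlap.

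S100a11 and S100a6 were abundant and slightly higher in the AAV-IL27 library. S100a11, a partner of annexin A1 in membrane repair, had 7063 and 7202 FPKM in the controls and 8024 in AAV-IL27 2 (AAV-ctrl mean 7133 ± 97.9 SD, n = 2). S100a6, also called calcyclin, had 1633, 1602 and 1746 (AAV-ctrl mean 1617 ± 22.0 SD, n = 2). In each gene the AAV-IL27 value stood above closely matched AAV-ctrl values. The differences were 0.17 for S100a11 and 0.11 for S100a6, 112% and 108% of the AAV-ctrl means, against an AAV-ctrl gap of 0.028 for each. Between the AAV-ctrl libraries, 22.4% and 39.6% of all genes differed by at least as much, but nearly all of these genes were less abundant. No comparison with genes of like abundance was made, so these shares do not say whether the 2 differences were unusual. The ratio of S100a11 to S100a6 was 4.33, 4.50 and 4.60, and that of S100a11 to annexin A1 (Anxa1), the reverse in direction, was 3.38, 3.69 and 4.25. S100a11 has 5 processed pseudogenes with at least 90% identity over at least 100 bases, the closest being Gm12854 with 98.99% over 297 bases, so its fragments may have been shared with copies that the table does not list.

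Of the other S100 genes, 7 of 10 were listed in the table and only S100a3 reached a mean FPKM of 1, with 1.31 and 1.93 in the AAV-ctrl libraries and 1.38 in AAV-IL27 2. The AAV-IL27 value lay between the controls. S100a7a had 1.17, 0.69 and 0.62 FPKM, and S100a2, S100a14, S100a16, S100b and S100g ranged from 0 to 0.63. Among the 12 listed genes within 100 kb of a member, 7 were not S100 genes and 5 of them could be measured. Their median difference was −0.018, from −0.44 for Ilf2 to 0.23 for Pglyrp4, a peptidoglycan recognition protein gene.

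For each calprotectin gene, the nearest genes were found by distance in both differences over 3 libraries. Those of S100a8 were 1110038F14Rik, Ampd3 and Rbbp4, and those of S100a9 included Sptlc2 and 1110034G24Rik. The 5 genes named had far lower levels, from 4.58 FPKM for 1110034G24Rik to 76.1 for Ampd3. Because 238 genes lay within 0.05 log2 units of S100a8 and 354 within 0.05 of S100a9, these names identify no particular group.

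Among measured genes of the pathway lists, the largest log2 differences were in Cd36 and Cd14, listed with receptors for extracellular S100 proteins. Of 8 receptors and signalling genes, all measured, 1 was higher and 1 lower by at least 1 log2 unit. Over all genes, 0.307% were higher and 2.32% lower. The median difference of the 8 genes was −0.090. Cd14, the co-receptor that hands ligands to TLR4, had 14.95 and 12.9 FPKM in the controls and 39.6 in AAV-IL27 2, a difference of 1.45. Cd36, a scavenger receptor linked to uptake of fatty acids carried by calprotectin, had 3.04, 2.37 and 0.31, a difference of −1.49. For both genes the AAV-IL27 value lay outside the AAV-ctrl values, which were 0.20 apart for Cd14 and 0.26 apart for Cd36. Cd36 is also expressed by macrophages, erythroid cells and megakaryocytes, whose markers were lower in the same library, and their part was not tested.

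Tlr4 itself was somewhat lower, with 13.8, 12.7 and 10.6 FPKM and a difference of −0.30. Ager, the gene of RAGE, had 6.37, 8.10 and 6.63, with AAV-IL27 2 between the controls. Bsg, the gene of the S100a9 receptor basigin, had 58.2 and 58.5 FPKM in the controls and 43.0 in AAV-IL27 2 (−0.43). Alcam, an adhesion molecule that can also bind S100 proteins, had 12.7, 11.8 and 18.3 (0.55). The AAV-IL27 values of Tlr4 and Bsg lay below both AAV-ctrl libraries and that of Alcam above both, although Alcam cleared only 1 of them by 0.5. Erythroid and macrophage markers were lower in the same library, and the part of those cells in the receptor values was not tested.

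Partners inside the cell were steady. Of 11 listed, 10 were measured and 0 differed by 0.5 or 1 log2 units, with a median of −0.0029. The lowest was Cacybp, the calcyclin-binding protein that pairs with S100a6, at −0.18. Cacybp had 7.06, 5.61 and 5.46 FPKM. Cybb, the catalytic subunit of the NADPH oxidase to which calprotectin delivers arachidonic acid, had 467, 439 and 465. Anxa1 had 2090, 1952 and 1886 FPKM and Anxa2 differed by −0.13.

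Transcription factors known to act on S100a8 and S100a9 were likewise close to the controls. Of 8 regulators, all measured, 0 differed by 0.5 or 1 log2 units, 5 lay above both AAV-ctrl libraries and the median was 0.068. Cebpb, a factor of emergency granulopoiesis, was highest, with 259, 231 and 319 FPKM (0.38), and Cebpe, which drives granule genes in maturing neutrophils, was lowest, with 119, 139 and 124 (−0.052). Stat3, which takes part in the response to IL-27, had 82.6, 76.6 and 76.9 FPKM (−0.049), with AAV-IL27 2 between the controls.

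Calcium sensors of other EF-hand families gave a comparison with genes of like chemistry. All 11 were measured, 0 differed by 0.5 or 1 log2 units, and their median was −0.059, close to the −0.065 of the S100 members. They ran from −0.25 for Gca, the gene of grancalcin in neutrophil granules and membranes, with 37.5, 33.1 and 29.5 FPKM, to 0.18 for Cib1, with 50.2, 54.7 and 59.5. The most abundant, Lcp1, which encodes the actin-bundling protein L-plastin, had 1836, 1653 and 1778. The S100 members thus ranged more widely, from −0.74 to 0.42, with both extremes and S100a10 among the 3 genes below 10 FPKM, while every listed EF-hand sensor outside the family exceeded that level.

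**Figure D4:**
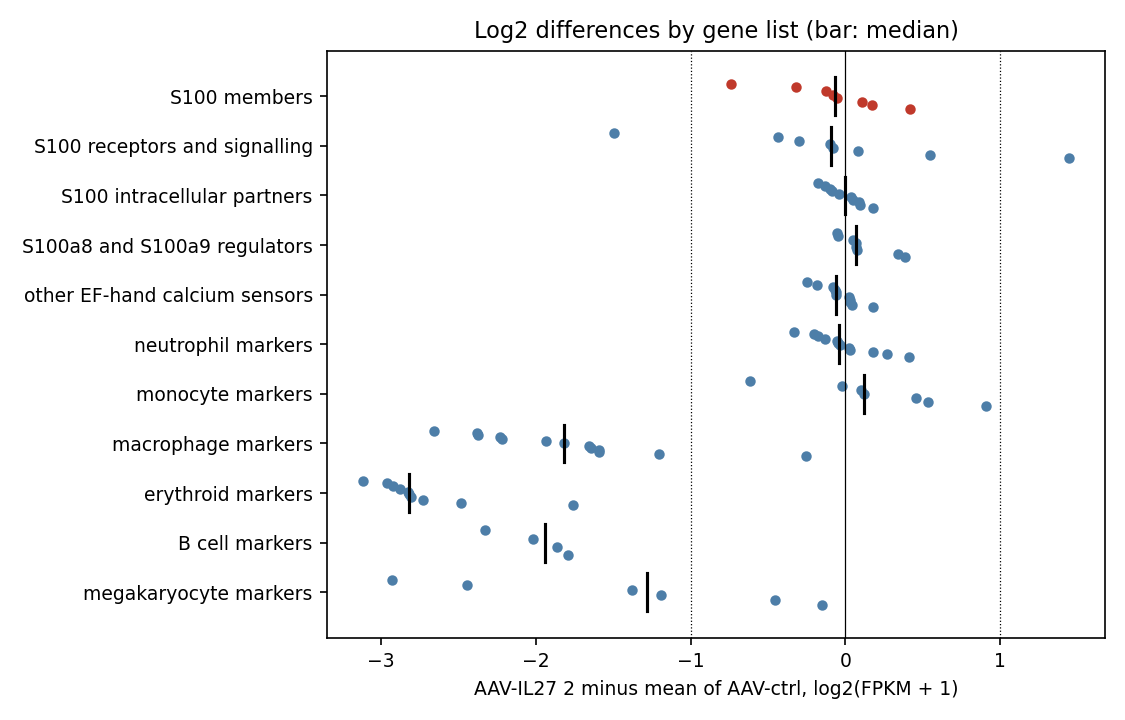
Log2 differences of AAV-IL27 2 from the AAV-ctrl mean, log2(FPKM + 1), for the measured genes of each list, with 1 point a gene, a bar at the median and dotted lines at 1 log2 unit. The S100 members (red) centre on −0.065 and stay inside the dotted lines, as do the partners, regulators, EF-hand sensors and neutrophil markers, whereas the medians of macrophage, erythroid, B cell and megakaryocyte markers lie below −1.

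Monocytes also carry S100 genes and can be bound by Gr-1 antibodies. Of 8 monocyte markers, 7 were measured and 0 differed by 1 log2 unit. By 0.5, 1 was lower and 1 higher, against 7.01% and 1.57% of all genes. Their summed FPKM was 1116, 1177 and 1238, mostly from Ly6c2 at 1023, 1086 and 1145, and their median difference was 0.12. Ly6c2 was highest in AAV-IL27 2, as were S100a4, S100a6 and S100a11, but the monocyte list was mixed. Of its 7 measured markers, 4 lay above both controls and 1 below both, against 38.9% and 41.9% of all genes. Those above were Ly6c2, Fn1, Ccr2 and F13a1. Fn1 had 1.71, 2.01 and 4.37 FPKM (0.91), Ccr2 1.43, 1.61 and 2.64 (0.53) and F13a1 2.05, 2.06 and 3.2 (0.46). The marker below both was Irf8, with 7.49, 7.89 and 4.66 FPKM (−0.62). Csf1r had 78.6, 74.5 and 75.4, and Cx3cr1 0.91, 1.64 and 1.41, with AAV-IL27 2 between the controls. All of these but Ly6c2 were named after their values were seen. The part of monocytes in the values of the S100 genes was not tested.

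All 8 members have short transcripts, 486 to 731 nucleotides long, and fall in the shortest of 20 length classes. The 453 genes of that class had a median difference of −0.079. This was also the value of S100a9, so the correction sets S100a9 to 0 by construction. Between the controls, as AAV-ctrl 2 minus AAV-ctrl 1, the median of the class was 0.057. With the class median removed, S100a8 differed by 0.028, S100a9 by 0, S100a13 by −0.047, S100a6 by 0.19, S100a11 by 0.25 and S100a1 by −0.66. S100a8 thus changed sign, and the order of the members stayed as it was, since the same value was taken from each.

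**Figure D5:**
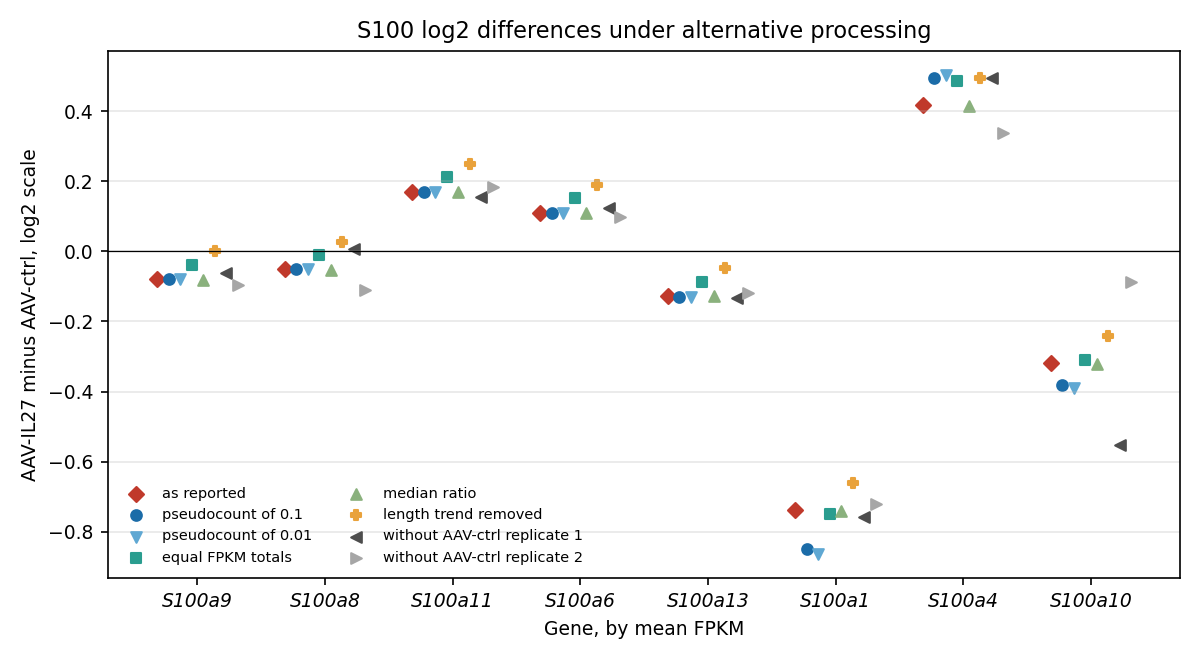
Log2 difference of each S100 gene (AAV-IL27 minus AAV-ctrl) as reported (diamonds) and under 7 other choices of pseudocount, scaling, length correction and AAV-ctrl library. S100a1 stays between −0.86 and −0.66 and S100a4 between 0.34 and 0.50, S100a8 and S100a9 stay between −0.11 and 0.028, and S100a10 runs from −0.55 to −0.087 with the AAV-ctrl library used.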

How the data were processed

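RNA-seq was made by the authors from BM Ly6G+ cells, with 3 samples listed (oligo-dT selection, dUTP strand marking, DNBSEQ sequencing). The authors deposited FPKM values with 2 decimals for 16073 rows, of which 1 without a symbol was left out, and 1 further column, which carries the name of another AAV-IL27 replicate but corresponds to no listed sample, was not used. The submitters' processing notes name the mm10 build. The aligner, the counter and whether counting used strand are not given in the sources used here. Groups were taken from the sample titles.

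Differences were computed on the log2(FPKM + 1) scale over the 9130 genes that averaged 1 FPKM or more, and a size rule of 1 log2 unit against each AAV-ctrl library replaced a test. The members and lists were chosen with earlier results of these data known. The lists held S100 receptors, intracellular partners, S100a13 export genes, regulators, EF-hand sensors and markers of 9 cell types. The genes named are the members, called pathway genes, the extremes of each pathway list with up to 4 genes tied to a member, the most abundant marker of each list and the 3 genes nearest to S100a8 and to S100a9. Genes beside the members were named for their position, and some further markers were named after their values were seen. Some genes that this rule selects are not reported here.

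Depth was fitted on low FPKM values of 10934 genes annotated with 1 transcript each, with 70 nt taken from each length. It placed 79.3%, 79.7% and 76.9% of 334, 306 and 312 low values within 0.2 of a whole fragment in AAV-ctrl 1, AAV-ctrl 2 and AAV-IL27 2. Since not all values were whole, fragment numbers are estimates, no count model was fitted and 95% Poisson intervals cover counting error only. The depth fit and the size rule were tested on simulated data. Alternatives were other pseudocounts, filters, thresholds, scalings, a length correction and leaving out each AAV-ctrl library. The work was done in Python 3.11.15 (with scipy 1.17.1 and pandas 2.3.3 on numpy 2.4.6), figures in matplotlib 3.10.9 and sequence comparisons in BLAST 2.17.0.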

Additional observations from a re-analysis of the deposited data

How the results depend on the processing

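No member met the size rule of 1 log2 unit under any alternative tried, and 1 (S100a1) was lower when the threshold was 0.5. Of 56 member values under alternatives, 11 moved by more than 1 SD of the AAV-ctrl libraries and 3 changed sign or reached 0, all of S100a8 or S100a9, which lay near 0. With equal FPKM totals, S100a9 differed by −0.038, S100a13 by −0.087, S100a6 by 0.15 and S100a11 by 0.21. With the length trend removed these became 0, −0.047, 0.19 and 0.25, and S100a1 −0.66. S100a1 differed by −0.85 and −0.86 with pseudocounts of 0.1 and 0.01. The share of all FPKM taken by the 8 genes differed by −0.153 percentage points, and by −0.676 without haemoglobin genes. S100a10 differed by −0.087 without AAV-ctrl 2 and −0.55 without AAV-ctrl 1.

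Of 63 list medians, 18 moved and 4 changed sign. The partners' median was 0.038 with equal totals, −0.023 with the length trend removed and −0.043 with no filter. The regulators' median was 0.11 with equal totals. The EF-hand median was −0.020 with equal totals, −0.023 with the length trend removed, and −0.056 to 0.0010 with 1 AAV-ctrl library left out. The monocyte median was 0.19 and 0.20 with pseudocounts of 0.1 and 0.01, 0.20 with the length trend removed, −0.021 over genes of at least 5 FPKM, and 0.076 to 0.34 with 1 AAV-ctrl library left out. The macrophage median was −1.96 and −1.97 with those pseudocounts, −1.79 with equal totals, −1.78 with the length trend removed, −1.88 over genes of at least 5 FPKM, and −1.86 to −1.82 with 1 AAV-ctrl library left out. The causes were not tested. Over all genes, 212 were lower and 28 higher, against 396 lower with a pseudocount of 0.1, 425 lower and 46 higher with 0.01, 93 lower over genes of at least 5 FPKM, and 49 higher without AAV-ctrl 2. Equal totals shifted the median of all genes by 0.038.

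No paired analysis was made, since the labels do not pair mice across the groups. With 1 AAV-IL27 library, variation between mice is unknown, and depth leaves S100a4 and S100a10 with 31 to 70 fragments. FPKM of such short transcripts depends on the effective length used, which is not given in the sources used here.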

Other observations

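Of 6 eosinophil and basophil markers, 5 were measured, 0 differed by 1 log2 unit, and the median difference was −0.36, with the most abundant gene, Prg2, at 7.83 and 10.9 FPKM in the controls and 5.16 in AAV-IL27 2, a difference of −0.73. Of 6 T and NK cell markers, 2 were measured, with a median of 0.12 and Cd3d at 7.40, 6.35 and 7.06. Of 6 stroma markers, 3 were measured, 0 differed by 1 log2 unit and the median was −0.75, with the most abundant gene, Col1a1, at 1.20, 1.77 and 1.23 (−0.15). The other measured stroma genes, named after their values were seen, were Bgn at 1.52, 1.82 and 0.49 (−0.84) and Sparc at 0.97, 1.81 and 0.40 (−0.75), both below each control.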
